A study of Mus musculus with 12 samples.

Results

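The genes described here are the transcriptional cofactor Yap1, its DNA-binding partner Tead1, and 8 genes known as their targets or as regulators of the pathway: Lats2, Amotl2, Ajuba, Ccn1, Ccn2, Ankrd1, Crim1 and Axl. The 10 genes were taken by symbol from a list, out of 55487 genes in the count tables, and each was matched to 1 Ensembl gene. The list was made with earlier results of these data known, so counts of members beside all genes are a description only. RNA was sequenced from primary cultures of mouse embryonic fibroblasts (MEF), taken from E13.5 embryos, and all cultures carried the same floxed huntingtin gene (HTTfl/fl). HTT-deleted cells had received a lentivirus encoding Cre recombinase and GFP, and control cells a lentivirus encoding H2B-eGFP, a fluorescent histone. Both were harvested 7 days after transduction. Cre and the lentivirus differed together with the deletion, so their effects cannot be told apart from its own. The whole culture was transduced, so cells that Cre did not reach stay in the HTT-deleted group. From each cell suspension, total RNA and the RNA that came down with purified ribosomes were sequenced separately. That gave 12 libraries in 4 groups of 3: total RNA of control cells, total RNA of HTT-deleted cells, ribosome-associated RNA of control cells and ribosome-associated RNA of HTT-deleted cells. A replicate could be another primary culture or another passage of one, which the labels do not tell apart, so p-values measure the spread over cultures, passages or both.

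YAP is the main effector of the Hippo pathway. The kinases LATS1 and LATS2 phosphorylate YAP and its relative TAZ and so hold them in the cytoplasm; when the kinases are quiet, YAP and TAZ enter the nucleus, bind TEAD proteins on DNA and switch on genes of growth, matrix and adhesion. In fibroblasts YAP responds to stiffness of the matrix, cell spreading and actin tension. The pathway is mostly controlled at the protein level, by phosphorylation and location, which RNA sequencing does not see; the target genes are the usual transcript readout. Several members are both targets and brakes: Lats2 and Amotl2 are switched on by YAP and hold it back.

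TEAD proteins bind the letters GGAATG, so the promoters are shown with that motif, since most of these genes are known as genes that TEAD acts on. The windows are the 250 bases before the transcription start as RefSeq gives it on GRCm38.p6, 5′ to 3′ on the strand of the gene. Each match to GGAATG, or to its reverse complement CATTCC, is in capitals. Starts in RefSeq and in the annotation used for the gene positions below can differ. 8 of the 10 genes had a window; Ccn2 and Tead1 had none. The 4 printed here are the most studied secreted target, the target with the largest log2 fold change in total RNA, and the pair of genes with 2 matches each.
Ccn1, chr3:145649986-145650235 (minus strand): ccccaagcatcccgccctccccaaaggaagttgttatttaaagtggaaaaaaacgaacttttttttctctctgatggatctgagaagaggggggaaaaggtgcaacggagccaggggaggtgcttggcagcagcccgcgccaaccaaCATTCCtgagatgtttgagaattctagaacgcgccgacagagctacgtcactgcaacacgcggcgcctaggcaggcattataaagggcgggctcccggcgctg
Crim1, chr17:78199998-78200247 (plus strand): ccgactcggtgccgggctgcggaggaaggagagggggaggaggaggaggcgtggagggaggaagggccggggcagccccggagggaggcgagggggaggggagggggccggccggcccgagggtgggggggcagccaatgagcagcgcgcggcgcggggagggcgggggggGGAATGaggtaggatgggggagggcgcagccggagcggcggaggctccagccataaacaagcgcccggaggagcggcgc
Ankrd1, chr19:36119845-36120094 (minus strand): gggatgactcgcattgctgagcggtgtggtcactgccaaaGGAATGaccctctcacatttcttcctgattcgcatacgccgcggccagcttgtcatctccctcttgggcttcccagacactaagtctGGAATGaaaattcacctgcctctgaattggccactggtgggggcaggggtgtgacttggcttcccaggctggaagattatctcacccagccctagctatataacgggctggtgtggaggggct
Ajuba, chr14:54577662-54577911 (minus strand): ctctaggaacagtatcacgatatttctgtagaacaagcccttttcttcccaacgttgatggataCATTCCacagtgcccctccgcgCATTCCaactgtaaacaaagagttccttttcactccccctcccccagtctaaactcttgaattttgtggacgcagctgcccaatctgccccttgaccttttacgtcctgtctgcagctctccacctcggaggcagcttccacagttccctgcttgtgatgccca
On either strand, 7 of the 8 genes held the motif, and Lats2 held none in its 2 windows. Across 27025 genes with a window, 14.4% held it, and 1 of 9 other known targets did (Ptpn14). The 5′ end of the match lay 103 bases before the start in Ccn1, 79 in Crim1, 65 in Amotl2, 141 in Yap1 and 233 in Axl. Ankrd1 had matches at 210 and 123 bases, and Ajuba at 186 and 164. The motif of AP-1, a factor known to share enhancers with TEAD, was searched as TGANTCA on both strands; it was in 0 of the 8 genes and in 7.82% of all genes. With no AP-1 match in the windows, no TEAD match overlapped one, and no binding was measured here. These matches are a description of the letters near the start.

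Libraries held 16789356 to 30571501 reads counted in genes, and 19446 to 22035 genes had a count. All 9 fibroblast markers were detected in every library, with summed levels of 23438 to 39826 read counts scaled to library size (CPM). Htt, the deleted gene, was at 58.9, 45.7 and 64.5 CPM in total RNA of control cells and at 15.5, 10.6 and 10.7 CPM after Cre; in ribosome-associated RNA it was at 22.6, 20.1 and 32.0 CPM and at 12.8, 5.04 and 3.98 CPM. The groups did not overlap in either fraction, and whether the Htt reads left in HTT-deleted cells came from cells without the deletion or from exons outside the floxed segment was not tested. Total HTT-deleted replicate 1 stood apart from the other libraries. The deviation of its genes from their mean in the other total RNA libraries had a Spearman correlation of -0.547 with exon length across 10777 genes. The other total RNA libraries had 0.199 to 0.407. Their reference means included total HTT-deleted replicate 1, so part of this contrast is built in. Mitochondrial transcripts took 0.854% of the counts of total HTT-deleted replicate 1, against 1.37 to 1.98% in the other total RNA libraries. Ribosome control replicate 1 had a correlation of -0.481 within its fraction, where the others had 0.0286 to 0.160. Values of the 10 genes and of other named genes that moved much without total HTT-deleted replicate 1 are given without it too.

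Levels spanned more than 2 orders of size among the 10 genes. Per kilobase of exon, in total RNA of control cells (mean ± SD, n = 3), Ccn2 stood at 335 ± 11.5 and Ccn1 at 313 ± 21.0 CPM per kb. Both encode secreted matricellular proteins that bind integrins and growth factors. Axl, a receptor tyrosine kinase, followed at 77.3 ± 3.3, and Amotl2, a junction-associated angiomotin that binds YAP, at 59.4 ± 8.0. Yap1 was at 25.3 ± 1.8 and Crim1, a membrane protein with chordin-like repeats that binds growth factors of the BMP family, at 24.5 ± 2.4. Tead1 stood at 17.6 ± 1.4, Ajuba, a LIM-domain adaptor that restrains LATS kinases, at 16.3 ± 0.92 and Lats2 at 14.2 ± 1.1. Ankrd1, a nuclear and sarcomeric ankyrin-repeat protein best known from muscle, was lowest at 2.82 ± 1.19. Neighbours in that order whose library ranges overlapped were Ccn1 and Ccn2, Crim1 and Yap1, and Ajuba and Tead1. All other neighbours had separate ranges. Length here is that of all exons merged, which can exceed the longest transcript (Yap1 9257 and 5282 bases, Tead1 13570 and 9964). The order of genes and the separate ranges can differ with another length. In ribosome-associated RNA of control cells Tead1 came below Lats2 and Ajuba, at 11.6 ± 1.2 CPM per kb of merged exon. Its range overlapped that of Lats2 (12.7 ± 0.86), whose range in turn overlapped that of Ajuba (13.4 ± 1.3). Of the cardiac and skeletal muscle markers, 3 to 7 of 10 were at 0 in each library, and their summed level was 2.25 to 13.9 CPM.

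**Figure D1:**
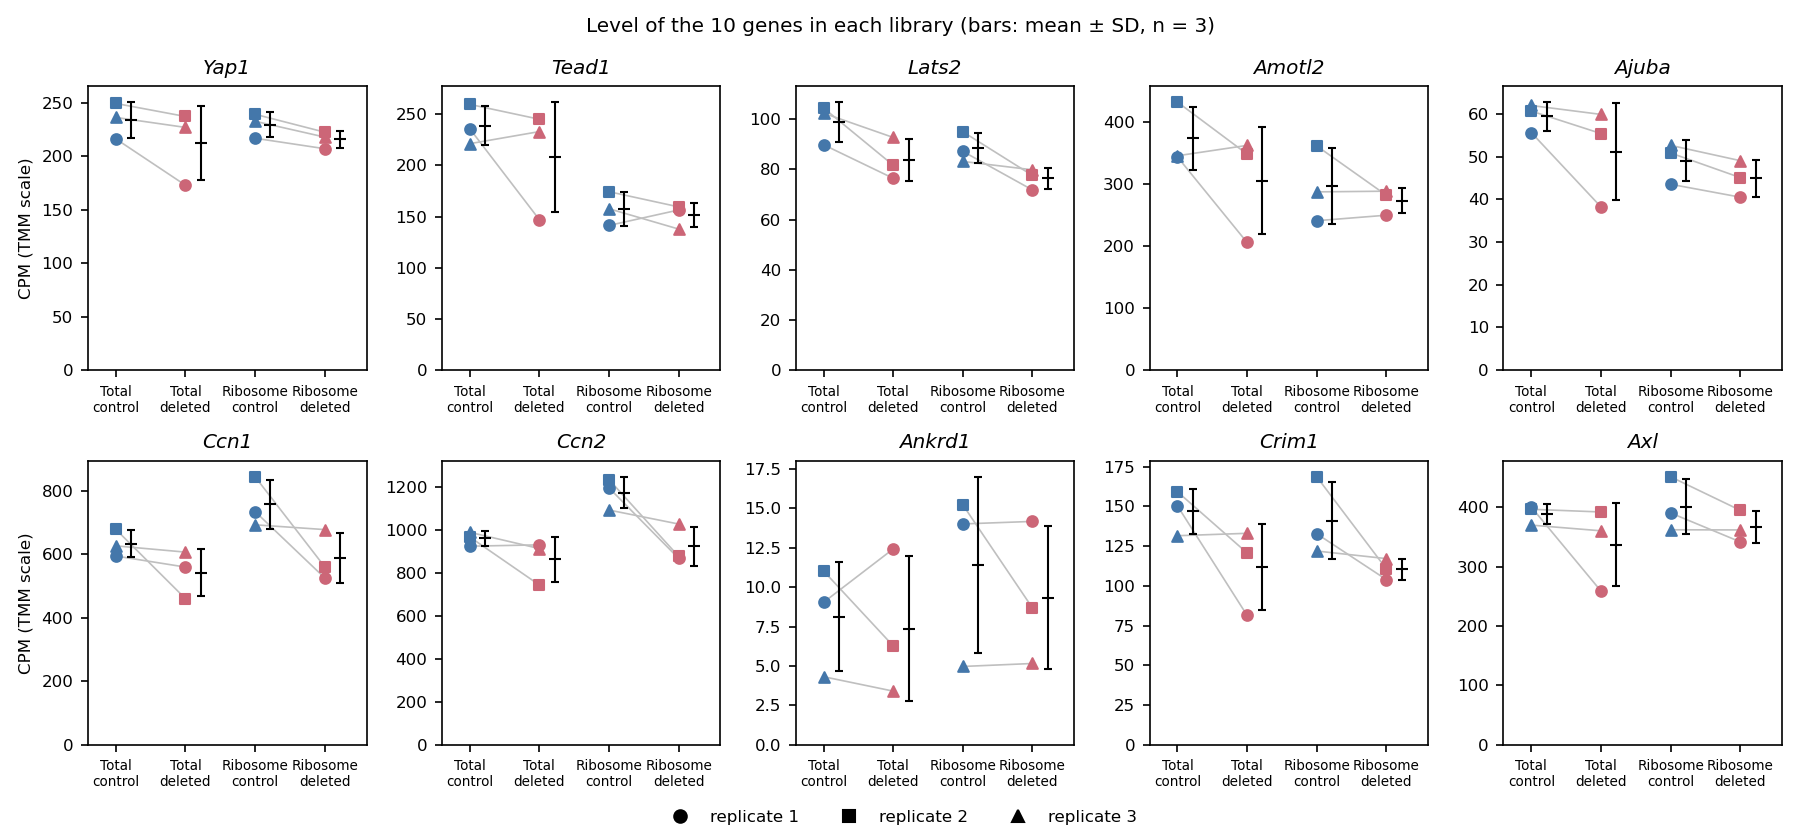
Level of each of the 10 genes in all 12 libraries, in CPM on the TMM scale (vertical axes start at 0), by group; marker shape gives the replicate, grey lines join same-numbered libraries of a fraction, blue is control and red HTT-deleted, and bars are mean ± SD (n = 3). In ribosome-associated RNA, the HTT-deleted points of Ccn1, Ccn2, Crim1 and Lats2 lie below all control points. In total RNA, replicate 1 of the HTT-deleted cells is the lowest point for Yap1, Tead1, Lats2, Amotl2, Ajuba, Crim1 and Axl.

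The first comparison asked how these transcripts differed between HTT-deleted and control cells in total RNA. None of the 10 passed the test there (edgeR quasi-likelihood, Benjamini-Hochberg adjusted p under 0.05), and none of 14759 genes did (0% called in each direction; 16 genes, 0.108%, were lower and 28, 0.19%, higher at an unadjusted p under 0.05, of which 0 were members). DESeq2 called 3 lower genes and limma voom 0, none of them members. All 10 fitted log2 fold changes were below 0, where 48% of all genes tested were, with a median of -0.19 against 0.013 for all genes. No member had HTT-deleted libraries that all lay below the controls (2.6% of all genes did), and 5 of 10 were lower in all 3 same-numbered pairs (13.3% of all genes). In bulk RNA, fewer cells of a type and less RNA per cell cannot be told apart.

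Of the cofactor and its partner, Yap1 was at 216, 249 and 236 CPM in control and at 173, 237 and 227 CPM in HTT-deleted total RNA, for replicates 1, 2 and 3. Its fitted log2 fold change was -0.11 (SE 0.16, adjusted p = 0.978). Tead1 was at 236, 260 and 221 CPM in control and at 147, 245 and 233 CPM in HTT-deleted cells (log2 fold change -0.17, SE 0.21). For both, the lowest value was that of the library that stood apart, and the other HTT-deleted libraries lay within or close to the control range. Without that library Yap1 was at -0.00011 and Tead1 at 0.012 on the log2 scale.

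Among the regulators, Lats2 was at 89.9, 105 and 102 CPM in control and at 76.5, 81.7 and 92.8 CPM in HTT-deleted total RNA. It was lower in all 3 pairs, though the groups overlapped by 1 library (log2 fold change -0.21, SE 0.13, adjusted p = 0.978). Its value without total HTT-deleted replicate 1 was -0.17. Amotl2 was at 343, 432 and 345 CPM in control and at 206, 348 and 362 CPM in HTT-deleted cells (-0.27, SE 0.24), and Ajuba at 55.6, 60.7 and 62.0 against 38.2, 55.4 and 59.9 CPM (-0.19, SE 0.18). Leaving out the library that stood apart brought Amotl2 to -0.062 and Ajuba to -0.032.

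Among the targets in total RNA, Ccn1 was at 594, 678 and 626 CPM in control and at 559, 460 and 606 CPM in HTT-deleted cells (log2 fold change -0.19, SE 0.17, adjusted p = 0.978). Ccn2 was at 923, 966 and 987 CPM in control and at 929, 742 and 912 CPM in HTT-deleted cells (-0.12, SE 0.17). The lowest library of both genes was HTT-deleted replicate 2, and without it Ccn1 was at -0.084 and Ccn2 at -0.022. Crim1 had the largest log2 fold change of the 10 in total RNA (-0.37, SE 0.19, adjusted p = 0.978), with 150, 159 and 132 CPM in control and 81.4, 121 and 133 CPM in HTT-deleted cells. It stood at -0.20 without the library that stood apart. Axl was at 400.5, 397 and 370 CPM against 259, 392 and 361 CPM (-0.18, SE 0.18), and at -0.037 without that library. Ankrd1 varied more between replicates than between conditions, with 9.04, 11.03 and 4.32 CPM in control and 12.4, 6.27 and 3.40 CPM in HTT-deleted cells (-0.09, SE 0.56). Its value ran from -0.73 to 0.26 over the 6 fits that each left out 1 library, so no direction could be given.

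In ribosome-associated RNA the same question gave a smaller SE for each of the 10 genes. Control replicates were not closer for all of them. The SD of Ccn1 in control cells was 78.1 CPM on ribosomes and 42.3 CPM in total RNA, and that of Tead1 16.5 and 19.4 CPM. No member was called, and none of 14588 genes was (0% in each direction; 66 genes, 0.452%, were lower and 44, 0.302%, higher at an unadjusted p under 0.05, members among the lower ones being Ccn1, Ccn2, Crim1 and Lats2). DESeq2 called 1 lower gene and limma voom 0, none of them members. All 10 log2 fold changes were again below 0 (50.3% of all genes tested), with a median of -0.17 against -0.0010. For 4 of the 10, all HTT-deleted libraries lay below all control libraries, which 2.82% of all genes did. 7 of the 10 were lower in all 3 pairs, as were 15.6% of all genes.

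Ccn1 was at 734, 844 and 692 CPM in ribosome-associated RNA of control cells and at 525, 560.0 and 677 CPM in that of HTT-deleted cells. The HTT-deleted libraries all lay below the controls, replicate 3 by a small margin. The fitted level was 0.779 of the control level (log2 fold change -0.36, SE 0.13, unadjusted p = 0.0295). Ccn2 was at 1194, 1232 and 1091 CPM in control and at 866, 875 and 1026 CPM in HTT-deleted cells, or 0.79 of the control level (-0.34, SE 0.11, unadjusted p = 0.0187). Again replicate 3 held the highest HTT-deleted and the lowest control value. Crim1 was at 133, 169 and 122 CPM against 104, 111 and 117 CPM, or 0.787 of the control level (-0.35, SE 0.13, unadjusted p = 0.0323). Lats2, the kinase that YAP itself induces, was at 87.2, 95.0 and 83.2 CPM against 71.8, 77.6 and 79.9 CPM, or 0.867 of the control level (-0.21, SE 0.09, unadjusted p = 0.0463). The adjusted p of each of the 4 was 1.00. With any 1 library left out, Ccn1 stayed between -0.47 and -0.28, Ccn2 between -0.42 and -0.30, Crim1 between -0.44 and -0.20 and Lats2 between -0.25 and -0.15 on the log2 scale.

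For the other 6 members the groups overlapped in ribosome-associated RNA. Yap1 itself was at 217, 239 and 233 CPM in control and at 207, 222 and 218 CPM in HTT-deleted cells (log2 fold change -0.08, SE 0.08, adjusted p = 1.00), lower in each pair and with overlapping groups. Tead1 was at 141, 174 and 158 CPM against 156, 159 and 138 CPM (-0.06, SE 0.11). Ajuba was at 43.5, 50.8 and 52.6 CPM against 40.5, 45.1 and 49.0 CPM (-0.12, SE 0.11), and Axl at 391, 452 and 362 CPM against 342, 395 and 362 CPM (-0.13, SE 0.11); both were lower in each pair, Axl in replicate 3 by -0.00092 on the log2 scale. Amotl2 was at 241, 361 and 287 CPM against 249, 282 and 288 CPM (-0.11, SE 0.15), and Ankrd1 at 14.0, 15.2 and 4.97 CPM against 14.2, 8.68 and 5.16 CPM (-0.28, SE 0.52). For Amotl2 and Ankrd1 only pair 2 was lower by more than 0.1, and without ribosome control replicate 2 Amotl2 stood at 0.053 and Tead1 at 0.020. Without that library 8 of 10 members were below 0 and their median was -0.076, and without ribosome HTT-deleted replicate 3 also 8 were.

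Same-numbered libraries deviated together across genes, so a fit with the replicate number as a block was also made. It called 247 genes in ribosome-associated RNA (213 higher, 1.46%; 34 lower, 0.233%) and 0 in total RNA. No member was among them: the blocked adjusted p was 0.0919 for Ccn2, 0.0938 for Ccn1, 0.0908 for Crim1 and 0.343 for Lats2, with log2 fold changes of -0.34 (SE 0.10), -0.36 (SE 0.10), -0.33 (SE 0.09) and -0.20 (SE 0.08). In the authors' deposited table, made with edgeR and named for a RUVSeq correction (which estimates unwanted variation), all 10 members were below 0 in both fractions. That authors' deposited table called 683 of 16235 genes in the ribosome-associated fraction at a false discovery rate (FDR) under 0.05 (4.21%; 1.09% lower), 1 member among them: Ccn2 at a log2 fold change of -0.34 (FDR 0.0416). In the authors' deposited table Ccn1 had -0.36 (FDR 0.0653) and Crim1 -0.33 (FDR 0.078) in that fraction. For total RNA the authors' deposited table called 844 of 16974 genes (4.97%) and 0 members, Crim1 being nearest at -0.39 (FDR 0.0896).

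**Figure D2:**
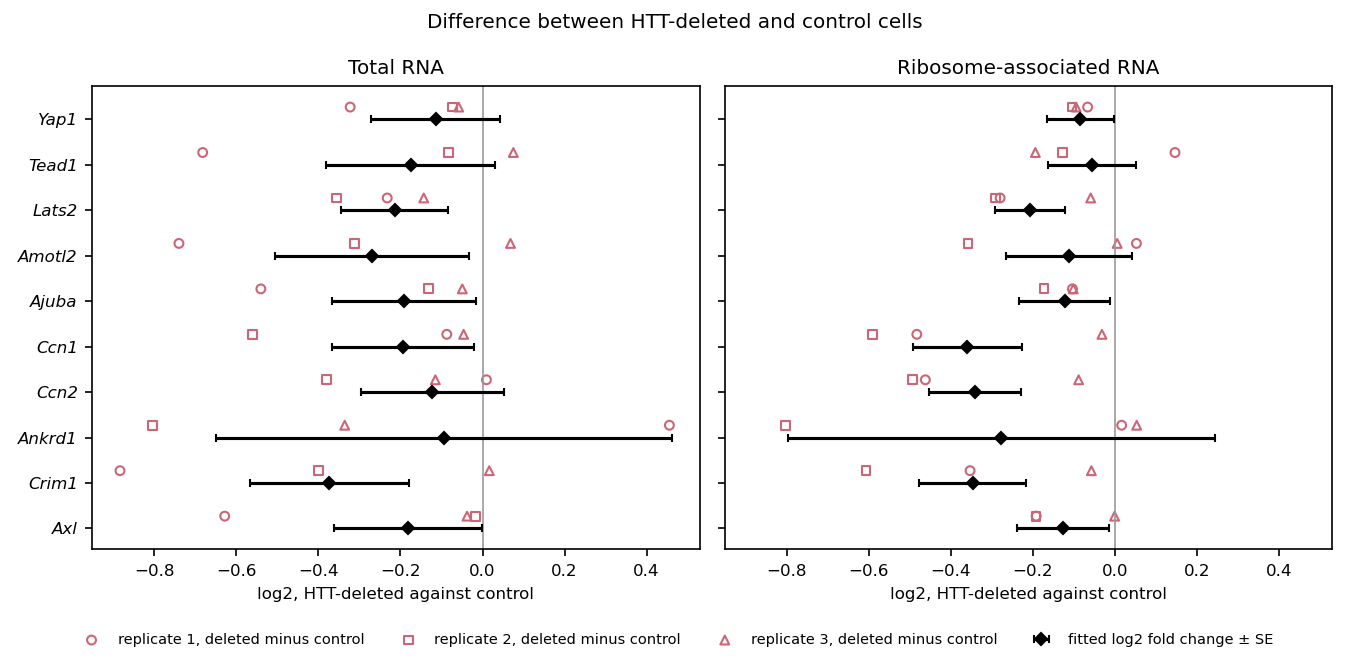
Log2 difference of HTT-deleted against control cells for each gene in total RNA (left) and ribosome-associated RNA (right); open markers are the 3 same-numbered pairs and black diamonds the fitted log2 fold change ± SE. All 10 diamonds lie left of 0 in both panels; in ribosome-associated RNA those of Ccn1, Ccn2 and Crim1 lie farthest left with pair 3 near 0, and in total RNA pair 1 is farthest left for Yap1, Tead1, Amotl2, Ajuba, Crim1 and Axl.

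The pairs did not carry these differences evenly. In total RNA the median difference of the 10 genes was -0.43 in pair 1, -0.33 in pair 2 and -0.048 in pair 3, and in ribosome-associated RNA -0.15, -0.33 and -0.058. All 10 were below 0 in pair 2 in both fractions. Htt was lower by -1.92, -2.10 and -2.58 on the log2 scale in pairs 1 to 3 of total RNA. On ribosomes the 3 values were -0.81, -1.98 and -2.98. Pair 3 held the largest difference in Htt and the smallest median difference of the 10 genes in both fractions. Any link between them was not tested. Macrophage markers moved with the conditions: all 15 were detected in every library and all 15 had fitted log2 fold changes above 0 in both fractions, with a median of 0.81 in total RNA. In ribosome-associated RNA the median was 0.73. Their summed level was 778 to 3162 CPM in control and 1780 to 7342 CPM in HTT-deleted total RNA, and 1177 to 4821 CPM and 2753 to 8338 CPM in ribosome-associated RNA. By pair their median difference was 0.87, 1.18 and 0.53 in total RNA, and on ribosomes 0.62, 1.17 and 0.48. It was highest in pair 2 and lowest in pair 3 in both fractions. Fibroblast markers had a median of -0.086 in total and -0.097 in ribosome-associated RNA, with 6 and 9 of 9 below 0. By pair their median difference was -0.48, -0.083 and -0.014 in total RNA, and on ribosomes -0.19, -0.25 and 0.064. In pair 1 of both fractions it was thus lower than the median of the 10 genes. Of 9 mesothelial and epithelial markers, 0 to 2 were at 0 in each library; 6 were tested and 4 of them were below 0 in each fraction, with medians of -0.60 in total and -0.63 in ribosome-associated RNA. Their summed level was low, at 7.71 to 30.3 CPM in control and 7.39 to 15.1 CPM in HTT-deleted total RNA, and 8.76 to 44.4 CPM and 6.66 to 21.2 CPM on ribosomes. It differed most in pair 2, where it went from 30.3 to 12.7 CPM in total RNA and from 44.4 to 21.2 CPM on ribosomes. In pair 1 it rose from 11.5 to 15.1 CPM in total RNA and fell from 19.0 to 16.5 CPM on ribosomes. In pair 3 it went from 7.71 to 7.39 CPM and from 8.76 to 6.66 CPM. The part of the macrophage or mesothelial signal, or of a smaller share of fibroblast RNA, in the differences of the 10 genes was not tested.

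In pair 1 of total RNA the differences varied with exon length. Among genes with over 3000 bases of exon, the median difference was -0.26 over 8165 genes and -0.63 over the 7 members of that length (Yap1, Tead1, Lats2, Amotl2, Ajuba, Crim1 and Axl). Among 2612 genes at or under that length the median was 0.55, and the 3 short members Ccn1, Ccn2 and Ankrd1 had 0.0096. In pair 2 the order was turned, with -0.56 for the 3 short members and -0.13 for the 7 long ones, where all genes of those lengths had -0.046 and -0.0088. Without total HTT-deleted replicate 1 the median of the 10 in total RNA was -0.12, with 9 below 0. Pair 1 of ribosome-associated RNA also varied with length. Its median was -0.14 over the 2612 genes at or under 3000 bases and 0.044 over the 8165 longer ones. Among the short members, Ccn1 was at -0.48, Ccn2 at -0.46 and Ankrd1 at 0.016 in that pair. The part of exon length in the differences of the members was not tested.

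The design also asks whether the share of each transcript on ribosomes differed between HTT-deleted and control cells. That was fitted as the interaction of condition and fraction over all 12 libraries. No member and none of 15574 genes was called, with or without the replicate block (0% in each direction; 57 genes, 0.366%, were lower and 28, 0.18%, higher at an unadjusted p under 0.05, of which 0 were members, and DESeq2 and limma voom called 0). Values of the 10 genes ran from -0.19 (SE 0.19) for Ccn2 to 0.17 (SE 0.31) for Amotl2, and 3 were below 0 (48.1% of all genes): Ccn1, Ccn2 and Ankrd1. Without total HTT-deleted replicate 1, 9 of 10 were below 0 and Ankrd1 was at 0.49, so the signs of all but Ccn1 and Ccn2 turned. Ccn1 and Ccn2 were below 0 with any 1 of the 12 libraries left out. By pair, though, Ccn1 was at -0.40, -0.031 and 0.014 and Ccn2 at -0.47, -0.11 and 0.026 in pairs 1 to 3. Pair 1 holds both libraries whose deviations followed exon length, total HTT-deleted replicate 1 and ribosome control replicate 1. Leaving out 1 library at a time does not remove both. The larger differences of Ccn1 and Ccn2 in ribosome-associated RNA than in total RNA were therefore within error, at -0.14 (SE 0.21) and -0.19 (SE 0.19).

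The last comparison set ribosome-associated against total RNA within control cells, to show how these transcripts are distributed. Purified ribosomes carry transcripts that are being translated, and the ratio is relative to all other transcripts of the fraction. Tead1 was lower on ribosomes, with 236, 260 and 221 CPM in total and 141, 174 and 158 CPM in ribosome-associated RNA. The ranges did not overlap, and the ribosome level was 0.656 of the total level (log2 fold change -0.61, SE 0.10, adjusted p = 0.00842). It was the 1 member called, where 15% of genes tested were called lower and 10% higher. The adjusted p of Tead1 was 0.0549 in a fit of all 12 libraries together. The groups also did not overlap (23.5% of all genes lower and 20.6% higher) for Ajuba (log2 fold change -0.28, SE 0.09, adjusted p = 0.0646), Ccn1 (0.25, SE 0.10, adjusted p = 0.127) and Ccn2 (0.28, SE 0.09, adjusted p = 0.0605), the secreted factors being higher on ribosomes. Ccn2 passed with DESeq2, limma voom and upper-quartile scaling, at adjusted p = 0.00546, 0.0490 and 0.0491. The share of all genes called in those settings is not given here. Without ribosome control replicate 1, whose deviations followed exon length, Tead1 was at -0.52 and Ajuba at -0.19. Amotl2 went from -0.34 to -0.20.

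With the replicate block, which compares ribosomes and total RNA of the same suspension, 6 of the 10 members were called in control cells, where 25.9% of all genes were called lower and 24.3% higher. Tead1 (-0.61, SE 0.07), Amotl2 (-0.35, SE 0.08, adjusted p = 0.00178) and Ajuba (-0.29, SE 0.08, adjusted p = 0.00591) fell on ribosomes, and Ccn1 (0.25, SE 0.08, adjusted p = 0.0136), Ccn2 (0.28, SE 0.08, adjusted p = 0.00867) and Ankrd1 (0.44, SE 0.13, adjusted p = 0.00918) rose. Each of these 6 had the same sign in all 3 control suspensions, as did 34.6% of all genes downwards and 37.2% upwards. Yap1 (-0.03, SE 0.07), Axl (0.03, SE 0.07), Crim1 (-0.08, SE 0.07) and Lats2 (-0.17, SE 0.07, adjusted p = 0.0743) did not pass. About 1 in 2 of all genes passed this blocked test, so the share of members called is close to the background. The 3 that rose are the 3 members with the shortest exon length.

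In HTT-deleted cells no member was called (0.896% of 14627 genes were lower, 0% higher; at an unadjusted p under 0.05 these were 9.44% and 2.76%, with 0 members; with the block 0.663% were lower and 0% higher; the block, DESeq2 and limma voom also called 0 members). Tead1 had log2 ratios of 0.090, -0.62 and -0.76 in suspensions 1 to 3, against -0.74, -0.57 and -0.49 in control cells. Amotl2 had 0.28, -0.31 and -0.33, and Ccn2 -0.10, 0.24 and 0.17. For each, suspension 1, whose total RNA library stood apart, had the opposite sign to the others. Without that library Tead1 (-0.67, adjusted p = 0.012) and Amotl2 (-0.38, adjusted p = 0.0432) passed, in a fit that called 11.9% of all genes lower and 7.95% higher. With pairs 2 and 3 and the block, 8 members passed, at -0.69 for Tead1, -0.32 for Amotl2, -0.30 for Ajuba, -0.16 for Crim1, -0.15 for Lats2, 0.20 for Ccn2, 0.22 for Ccn1 and 0.52 for Ankrd1. That fit called 27.7% of all genes higher (4149) and 27.9% lower (4184), with 1 residual degree of freedom per gene, so the spread was mostly borrowed from other genes.

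**Figure D3:**
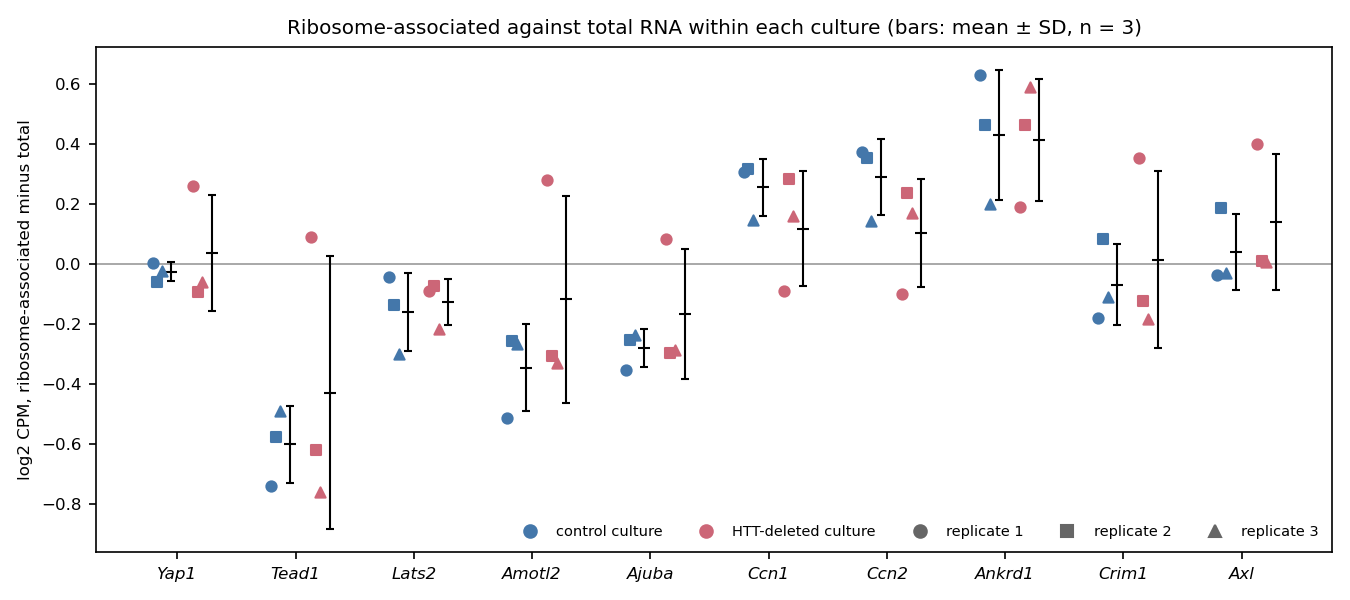
Log2 CPM in ribosome-associated minus total RNA of the same suspension, for each gene in control (blue) and HTT-deleted (red) cultures; marker shape gives the replicate and bars are mean ± SD (n = 3). Tead1 lies below 0 in all 3 control suspensions, Ccn1, Ccn2 and Ankrd1 above 0, and HTT-deleted replicate 1 lies apart from replicates 2 and 3 for Yap1, Tead1, Amotl2, Ajuba, Crim1 and Axl.

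The rest of the pathway was read from lists of genes that are not among the 10. Other cofactors and partners of TEAD were Wwtr1 (TAZ, the relative of YAP), Tead2, Tead3, Tead4, Vgll3 and Vgll4; Vgll1 and Vgll2 did not pass the filter on low counts. None of these 6 was called in either HTT comparison. All 6 had log2 fold changes below 0 in both fractions, with medians of -0.13 in total RNA (-0.030 with pairs 2 and 3 and the block) and -0.11 on ribosomes. The smallest p in total RNA were those of Tead4 (-0.49, SE 0.36) and Tead3 (-0.21, SE 0.21), and in ribosome-associated RNA those of Tead3 (-0.23, SE 0.11) and Tead2 (-0.18, SE 0.08), with overlapping groups except for Tead2 in ribosome-associated RNA. Without total HTT-deleted replicate 1, Tead4 was at -0.28 and Tead3 at -0.014 in total RNA. On ribosomes of control cells 0 of 6 were called without the block and 3 with it, all lower: Tead2 (-0.20, SE 0.08, adjusted p = 0.0413), Tead3 (-0.19, SE 0.07, adjusted p = 0.0413) and Tead4 (-0.54, SE 0.21, adjusted p = 0.0478). Over all genes tested, 15% were called lower and 10% higher without the block, and 25.9% and 24.3% with it.

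Of 20 other Hippo kinases, adaptors and upstream regulators, 0 were called in either HTT comparison. In total RNA 16 were below 0, with a median of -0.13, and -0.020 with pairs 2 and 3 and the block; in ribosome-associated RNA 11 were below 0, with a median of -0.029. Map4k4, a kinase that activates LATS, was at -0.32 (SE 0.20) and Wwc2, a scaffold of LATS, at -0.26 (SE 0.17) in total RNA. Without total HTT-deleted replicate 1 they were at -0.14 and -0.10. In ribosome-associated RNA Mob1a, the LATS coactivator, was at 0.14 (SE 0.09) and Frmd6, an upstream FERM-domain protein, at -0.17 (SE 0.14), the latter at -0.031 without ribosome control replicate 2. On ribosomes of control cells 5 of 20 were called lower and 1 higher. Over all genes tested, 15% were called lower and 10% higher. Taok2, a kinase upstream of the MST kinases, was at -0.63 (SE 0.11, adjusted p = 0.00871), Dchs1, a giant protocadherin, at -0.62 (SE 0.12, adjusted p = 0.013) and Amotl1, the close relative of Amotl2, at -0.45 (SE 0.11, adjusted p = 0.026). Mob1a rose, at 0.31 (SE 0.07, adjusted p = 0.0234). Without ribosome control replicate 1, Taok2 was at -0.51, Dchs1 at -0.47 and Amotl1 at -0.33.

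Of 15 other known YAP and TEAD targets, 0 were called in either HTT comparison, 11 were below 0 in total RNA (median -0.20, and -0.0019 with pairs 2 and 3 and the block) and 12 in ribosome-associated RNA (median -0.075). F3, the coagulation tissue factor, was at -0.24 (SE 0.21) in total RNA (-0.44 without HTT-deleted replicate 1 and -0.11 without control replicate 2), and at -0.42 (SE 0.16, blocked adjusted p = 0.0766) in ribosome-associated RNA. Asap1, an ARF GTPase-activating protein, was at -0.28 (SE 0.26) in total RNA (-0.023 without total HTT-deleted replicate 1), and Igfbp3, a secreted binding protein of insulin-like growth factors, at -0.32 (SE 0.16) in ribosome-associated RNA. On ribosomes of control cells 3 of 15 were called, all lower: Arhgef17 (-0.93, SE 0.13, adjusted p = 0.0047), Ptpn14, a phosphatase that binds YAP (-0.84, SE 0.16, adjusted p = 0.0118), and Myof, a membrane-repair ferlin (-0.60, SE 0.12, adjusted p = 0.0142). Over all genes tested, 15% were called lower and 10% higher. With the block, Asap1 was at -0.29 (SE 0.08, adjusted p = 0.00882). Without the block and without ribosome control replicate 1, Arhgef17 was at -0.78, Ptpn14 at -0.67 and Myof at -0.46.

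Across libraries the 10 genes did not vary as a single block. After the mean of each fraction was taken from log2 CPM, Ccn1 and Ccn2 had a Pearson correlation of 0.96 over the 12 libraries and of 0.97 without total HTT-deleted replicate 1. Lats2 varied with both, at 0.84 with Ccn1 (0.94 without that library) and 0.73 with Ccn2 (0.91). Yap1 varied with Amotl2 (0.93) and Ajuba (0.92), and with Tead1 at 0.90, but without that library these were 0.78, 0.72 and 0.56. Tead1 and Ajuba went from 0.79 to 0.14. Yap1 and its target Ccn1 were at 0.32 (0.49 without the library), and Ankrd1 at -0.33 with Yap1 (0.0038) and at -0.57 with Ajuba (-0.49). These correlations are descriptions: the 12 libraries come from 6 suspensions, share scaling factors and conditions, and 1 library decided several of them.

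**Figure D4:**
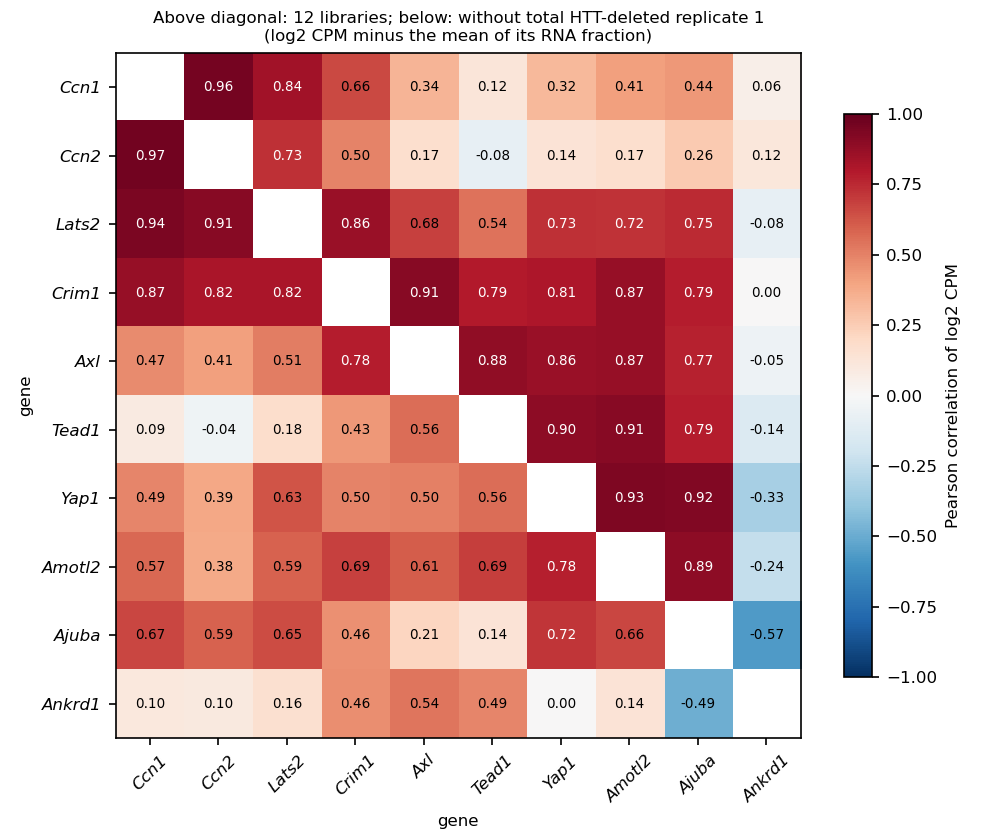
Pearson correlation of log2 CPM between the 10 genes after the mean of each RNA fraction was subtracted; cells above the diagonal use 12 libraries and cells below it 11, without total HTT-deleted replicate 1. Ccn1, Ccn2, Lats2 and Crim1 have values of 0.82 and above among each other below the diagonal, where above it Ccn2 with Crim1 is at 0.50, while Tead1 with Ajuba goes from 0.79 to 0.14.

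Outside the 10, the protein-coding genes with the most similar pattern over the 12 libraries, among 10767 with a mean of at least 5 CPM, were named for 3 members. For Ccn1 these included Tnfrsf1a (Pearson correlation 0.94), Lpcat4 (0.92), Ncln (0.91) and Mmp3 (0.90). For Ccn2 they were Mmp3 (0.93), Trib1 (0.92), Smoc2 (0.91), Lpcat4 (0.90) and Tnfrsf1a (0.90), and Tnfrsf1a, Lpcat4 and Mmp3 were thus near both. For Yap1 they were Afap1 (0.98), Trim16 (0.98), Vangl1 (0.97), Ube2h (0.97) and Stat3 (0.97), none shared with the others. Without total HTT-deleted replicate 1 the values stayed at 0.90 to 0.94 for the neighbours of Ccn1 and Ccn2 and were 0.87 to 0.95 for those of Yap1.

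The genes lie on 7 chromosomes of GRCm38, as protein-coding genes, and the counts are of exon reads of the whole gene. Yap1 spans chr9:7931999-8004596 and Amotl2 chr9:102716672-102733418, Tead1 chr7:112679318-112906807 and Axl chr7:25757273-25788705, Lats2 chr14:57689662-57758388 and Ajuba chr14:54567472-54577558, Ccn1 chr3:145646976-145649981, Ccn2 chr10:24595442-24598683, Ankrd1 chr19:36111961-36120099 and Crim1 chr17:78200248-78376592. Merged exon length ran from 2019 bases in Ccn1 to 13570 in Tead1.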

How the data were processed

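RNA of 12 libraries (4 groups of 3) was sequenced after ribosome purification or as total RNA. Per the submitters' processing notes, reads were checked with FastQC, aligned with STAR 2.7.2b to GRCm38 (mm10) and counted with HTSeq 0.11.1. The authors deposited raw read counts per gene. Which annotation release was counted, and with which strand option, is not given in these sources; libraries were stranded per the labels' protocols, and reads of overlapping genes went into no gene (2.09 to 2.68% ambiguous). Reads outside genes were 2.64 to 7.73%, and the 5 summary rows were left out. The authors also deposited a table of their own comparison with log2 fold changes, p-values and a likelihood ratio score, made with edgeR and named for RUVSeq, with no word on the RUVSeq method. Of 55487 gene IDs, 55394 were in the annotation used for lengths and positions (GENCODE vM21). 

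From the counts, CPM was computed on the TMM scale (log2 with a prior count of 2). Each comparison was fitted on all genes that passed filterByExpr with edgeR 4.0.16 (R 4.3.3; glmQLFit with robust estimation, glmQLFTest) and adjusted by Benjamini-Hochberg over all of them, with calls under 0.05. Only the groups compared entered a fit; the interaction used all 4. The script was tested on simulated data. Alternatives were other scaling (RLE, upper quartile), other filters, DESeq2 1.42.0, limma voom (limma 3.58.1), the replicate number as a block, all 12 libraries in 1 fit, and each library left out. Same-numbered libraries are total and ribosome-associated RNA of a suspension, and between conditions they deviated together, with across-gene correlations for pairs 1 to 3 of 0.227, 0.576 and 0.444 (total) and 0.525, 0.703 and 0.626 (ribosomes); between fractions these were 0.501, 0.737 and 0.651 in control and 0.347, 0.579 and 0.578 in HTT-deleted cells. Replicates differed by 35.1 to 178 times sampling noise (chi-square per degree of freedom), so none was a repeat of another. The text names all 10 genes, Htt, and of each other list up to 4 genes called with or without the block, otherwise the 2 with the smallest p. The neighbours named for Ccn1, Ccn2 and Yap1 are the 5 with the highest correlation, of which 1 is not reported here. The members and lists were chosen with earlier results of these data known. The counts of groups that do not overlap with a library left out, and the correlations without total HTT-deleted replicate 1, were added after seeing the data. PCR duplicates are not marked, so depth limits precision only in part.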

Additional observations from a re-analysis of the deposited data

How the results depend on the processing

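No member crossed the threshold in a comparison of HTT-deleted and control cells under any alternative run, and of 180 values with other settings 1 changed sign (Tead1 in total RNA, 0.0034 with pairs 2 and 3 and the block). The replicate block moved the calls in ribosome-associated RNA from 0 to 213 higher and 34 lower genes, and on ribosomes of control cells to 3647 higher and 3877 lower genes with 6 members; it turned Crim1 to 0.0035 on ribosomes of HTT-deleted cells and changed no call of a member in the HTT comparisons. With 1 library left out, 8 of 120 values in these 2 comparisons within a fraction changed sign (4 of Ankrd1, 3 of Tead1, 1 of Amotl2); the cause was not tested.

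Pairs 2 and 3 with the block gave 78 higher and 16 lower genes in total RNA, and on the ribosome side 11 and 3. On ribosomes they gave 3657 higher and 3788 lower genes in control cells (24.1 and 25% of all genes; 7 members), and 4149 and 4184 in HTT-deleted cells (27.7 and 27.9%; 8 members). There Tead3 stood at 0.0019 and Tpm2 at -0.11 in total RNA, Ccn5 at 0.0054 in ribosome-associated RNA, and Yap1 at -0.080 on ribosomes of HTT-deleted cells. In the interaction this fit put 8 members below 0, with Yap1 at -0.040, Tead1 at -0.16, Amotl2 at -0.060, Ajuba at -0.054, Crim1 at -0.15, Axl at -0.074, Ankrd1 at 0.16 and Htt at -0.17.

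Without a filter on low counts there was 1 lower gene in total RNA, and 1 higher and 207 lower genes on ribosomes of HTT-deleted cells, with Crim1 at 0.011. DESeq2 called 3 lower genes in total RNA, 1 in ribosome-associated RNA, 121 higher and 745 lower on ribosomes of HTT-deleted cells, and 2 members on ribosomes of control cells. Voom called 2 members there and 1 higher gene in HTT-deleted cells, with Crim1 at 0.0039 and Ankrd1 at 0.035 in the interaction. Upper-quartile scaling called 2 members on ribosomes of control cells, with Yap1 at 0.0030, and 1 higher gene in HTT-deleted cells, as did RLE scaling (1). The main fit called 10% of all genes higher and 15% lower on ribosomes of control cells. The shares with DESeq2, voom and upper-quartile scaling are not given here, so their counts of members have no background. A fit of all 12 libraries called 338 higher and 1308 lower genes on ribosomes of control cells with 0 members, and 190 and 945 in HTT-deleted cells. A filter of 5 CPM left 86 lower genes there, with Yap1 at -0.0073.

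Leaving out 1 library at a time gave these ranges. In total RNA Tead1 ran from -0.30 to 0.012, Ankrd1 from -0.73 to 0.26, Tpm2 from -0.053 to 0.51, Ccn4 from -0.26 to 0.084 and Ccn3 from -0.42 to 0.25. Members whose groups did not overlap ran from 0 to 4, the latter without control replicate 1 or HTT-deleted replicate 3. Fewer libraries make that rule easier to meet. The share of all genes that met it in those settings is not given here, so this count has no background. In ribosome-associated RNA Tead1 ran from -0.12 to 0.020, Amotl2 from -0.24 to 0.053, Ankrd1 from -0.71 to 0.019, Ccn3 from -0.53 to 0.17 and Ccn5 from -0.43 to 0.12. In the interaction 2 to 9 members were below 0; Yap1 ran from -0.066 to 0.14, Tead1 from -0.048 to 0.27, Lats2 from -0.017 to 0.097, Amotl2 from -0.030 to 0.35, Ajuba from -0.073 to 0.20, Ankrd1 from -0.57 to 0.49, Crim1 from -0.12 to 0.20, Axl from -0.072 to 0.20 and Htt from -0.26 to 0.71. On ribosomes of control cells 385 to 1189 genes were higher and 1122 to 2062 lower; Yap1 ran from -0.080 to 0.019, Crim1 from -0.21 to 0.027, Axl from -0.050 to 0.11 and Ccn3 from -0.018 to 0.70. On ribosomes of HTT-deleted cells 0 to 1203 genes were higher, 0 to 1805 lower and 0 to 2 members called; Yap1 ran from -0.11 to 0.11, Ccn2 from -0.0013 to 0.15, Ankrd1 from -0.093 to 0.94, Crim1 from -0.20 to 0.12 and Axl from -0.044 to 0.24.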

Other observations

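Targets of SRF and its cofactors, the MRTF proteins, answer to actin tension as YAP does, and 12 of them were read beside the YAP genes. None was called in either HTT comparison (edgeR, 0 of 12 with or without the replicate block). In ribosome-associated RNA all 12 had log2 fold changes below 0, with a median of -0.13, and 11 were lower in all 3 pairs, where 15.6% of all genes were. The smallest p were those of Fhl2, a LIM-domain cofactor, at -0.24 (SE 0.09, blocked adjusted p = 0.188), and Tpm2, a tropomyosin, at -0.35 (SE 0.15, blocked adjusted p = 0.0766). In total RNA the median was 0.10 with 3 below 0, and -0.077 with pairs 2 and 3 and the block. Tpm2 there was at 0.34 (SE 0.29) and Vcl, which encodes vinculin, at -0.34 (SE 0.29), and without total HTT-deleted replicate 1 they were at -0.053 and -0.063. By pair the median of the 12 in total RNA was 0.43, -0.12 and -0.0021, so pair 1, which holds the library that stood apart, set the sign. On ribosomes of control cells Flna, filamin A, fell (-0.89, SE 0.13, adjusted p = 0.00516) and Actg1, cytoplasmic gamma actin, rose (0.32, SE 0.10, adjusted p = 0.04999). With the block, which called 24.3% of all genes higher and 25.9% lower, 9 of 12 rose and 2 fell, Tagln (0.55, SE 0.08) and Fhl2 (0.28, SE 0.08, adjusted p = 0.00867) among the former.

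Relatives of Ccn1 and Ccn2 were read too. Of the other CCN genes, Ccn3, Ccn4 and Ccn5 passed the filter and Ccn6 did not. Ccn3 was at -0.10 (SE 0.42) in total and -0.19 (SE 0.44) in ribosome-associated RNA, Ccn4 at -0.07 (SE 0.26) in total RNA and Ccn5 at -0.14 (SE 0.37) in ribosome-associated RNA, and 0 of 3 were lower in all 3 pairs in either fraction. Replicates of Ccn3 spread widely, at 821 ± 377 CPM in total RNA of control cells (SD, n = 3). With the block, all 3 rose on ribosomes of control cells: Ccn3 by 0.33 (SE 0.08, adjusted p = 0.00268), Ccn4 by 0.22 (SE 0.07, adjusted p = 0.0211) and Ccn5 by 0.33 (SE 0.09, adjusted p = 0.00741) on the log2 scale. Without the block none of the 3 passed. Over all genes tested, 24.3% were called higher with the block and 10% without it.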
